A study of Mus musculus with 12 samples.

Results

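The RNA of 10 genes that mark the endothelium of liver sinusoids was followed across RNA sequencing libraries made from sorted mouse T cells. The 10 genes, Kdr, Oit3, Dnase1l3, Ptprb, Stab1, Stab2, Clec4g, Lyve1, Eng and Pecam1, were taken by name as markers of that cell type from the 52459 genes of the deposited count table. They were chosen with earlier results of these data known, so counts of them beside all genes are descriptions and not tests. All 10 passed the filter on low counts, which left 16218 genes for testing. Lyve1 passed it only through the libraries of γδ T cells from mice on the control diet, where it was highest, so that a difference from the other groups was built into its passing.

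The study measured 12 libraries in 6 groups of 2. Wild type C57BL/6 mice and γδTCR-/- mice, which lack the γδ T cell receptor, were 7 weeks old when they went on a control diet or an MCD diet for 6 weeks. MCD is the usual short name of a diet deficient in methionine and choline that is used to bring on fatty liver disease, although the labels give only the abbreviation. The groups were wild type γδ T cells on the control diet (replicates 6 and 7) and on the MCD diet (replicates 2 and 4), wild type CD4+ T cells on the control diet (replicates 2 and 3) and on the MCD diet (replicates 1 and 3), and γδTCR-/- CD4+ T cells on the control diet (replicates 1 and 2) and on the MCD diet (replicates 1 and 2). Cells were sorted by flow cytometry into lysis buffer. The labels name neither the tissue the cells were sorted from nor whether 2 libraries of a group came from different mice, so p-values measure only the spread between these libraries, which may be technical.

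Sinusoidal endothelial cells line the small blood channels of the liver. They form a sieve with open pores and no firm basement membrane, and they clear hyaluronan, collagen fragments and other waste from blood through scavenger receptors. Most of these genes are not known as T cell genes. Pecam1 stands apart in that it is also made by many white blood cells, and Stab1, Eng and Dnase1l3 are also made by some macrophages or dendritic cells.

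Library totals ran from 17035638 to 23203603 counts, of which mitochondrial genes took 40.8% to 56.8%. γδ MCD libraries detected fewer genes at 10 counts or more (8989 and 10125) than the other 10 libraries (11903 to 13402). Levels below are in CPM, which scales counts to a common library size. A level of 3 counts, used as the floor of detection, corresponded to 0.13 to 0.248 CPM. The sorted cell types matched their labels. Trdc, the constant region of the δ receptor chain, was at 538 to 733 CPM in γδ libraries, and Cd4 was at 632 to 1450 CPM in CD4+ libraries and at 0.975 to 4.29 CPM in γδ libraries. For the genotype, Trdc gave no check: it was at 0.828, 2.69, 2.8 and 0.231 CPM in wild type CD4+ libraries and at 3.22, 7.93, 3.69 and 0.92 CPM in those labelled γδTCR-/-, which were thus not lower, and the labels do not say which gene or part of it was deleted.

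In all, 8 of the 10 genes showed one pattern. In both γδ libraries of the control diet, Kdr, Oit3, Dnase1l3, Ptprb, Stab2, Clec4g, Lyve1 and Eng were higher than in any of the other 10 libraries. The same 8 genes were lower on the MCD diet than on the control diet without overlap of libraries in wild type γδ T cells, as were 22.1% of all genes tested, and in wild type CD4+ T cells, as were 17.2%. Among wild type CD4+ T cells 7 of these 8 were above the floor of 3 counts per library on the control diet, and Lyve1, with 2 and 1 counts against 0 and 0, was not. In γδTCR-/- CD4+ T cells none of these 8 was lower on the MCD diet without overlap. Stab1 and Pecam1 did not follow the pattern. By group means, wild type CD4+ control libraries came next after γδ control libraries for Kdr, Oit3, Ptprb, Stab2, Clec4g and Eng, and γδ MCD libraries came next for Dnase1l3. That second group did not overlap the third for Kdr, Ptprb, Clec4g and Eng, and overlapped it for Oit3, Dnase1l3 and Stab2. In bulk samples, fewer cells that carry these RNAs and less RNA per such cell cannot be told apart.

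**Figure D1:**
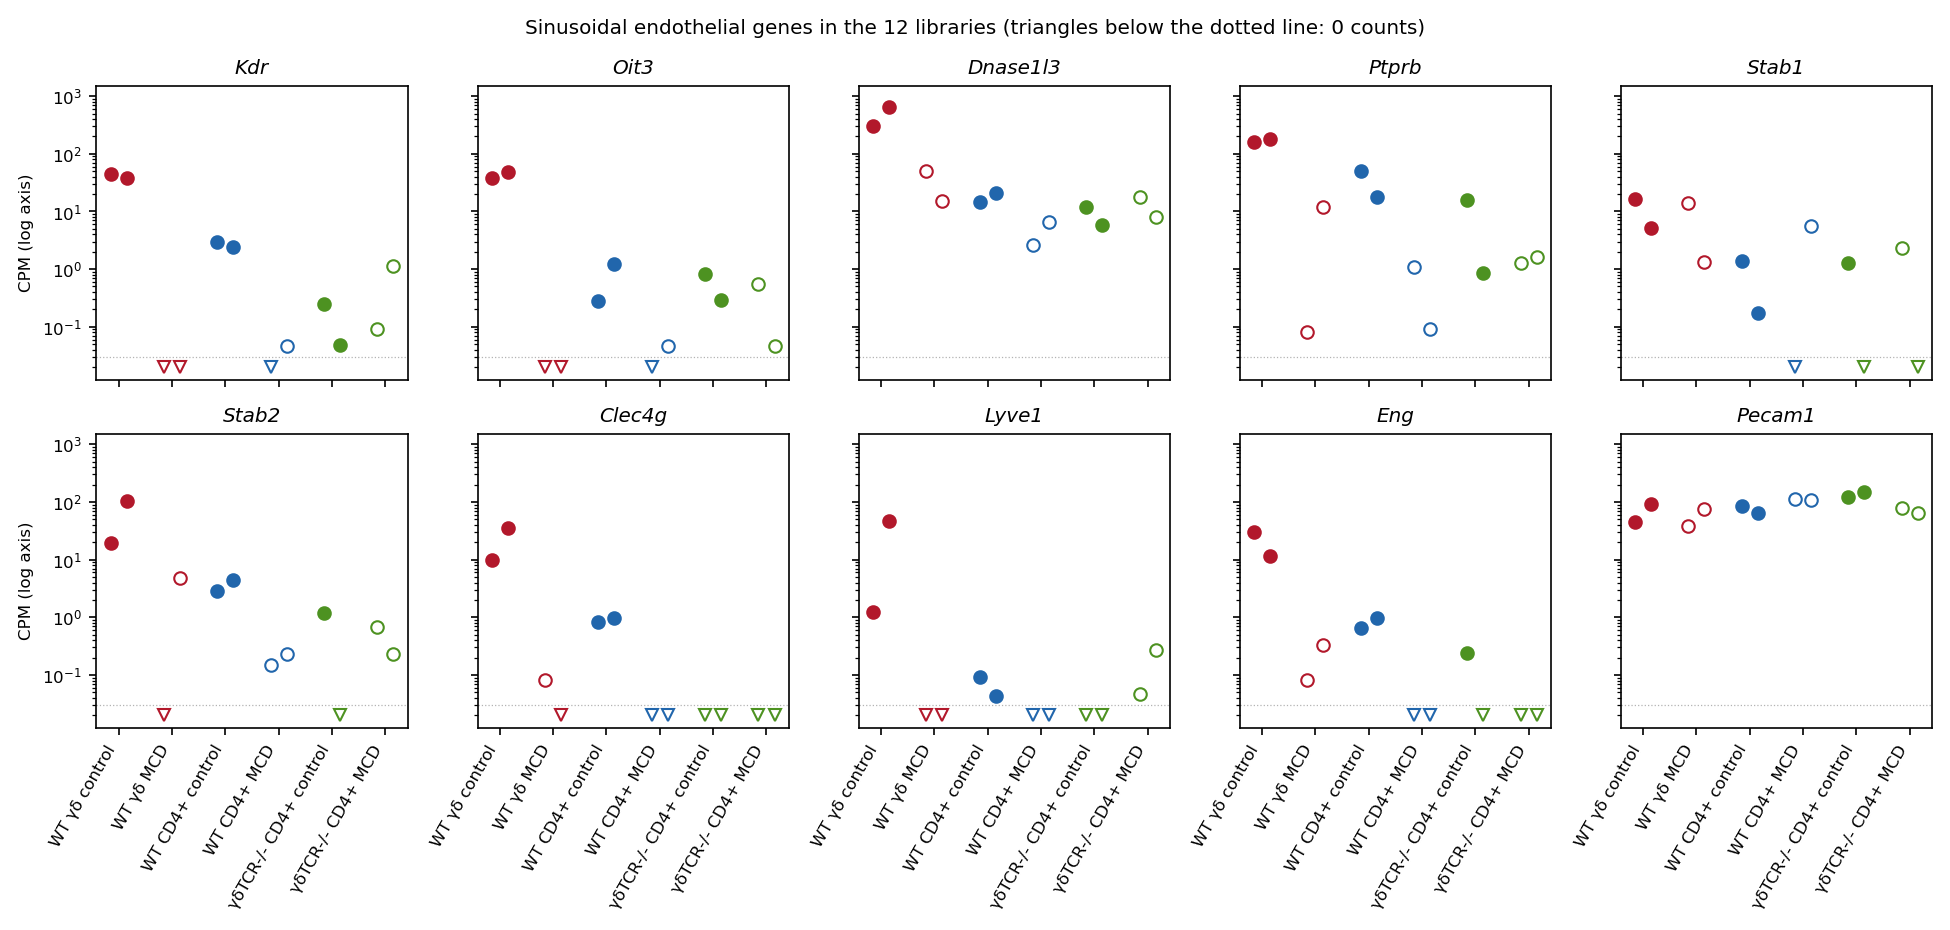
CPM of the 10 genes on a log axis, with 1 point per library, filled for the control diet and open for the MCD diet, and a triangle below the dotted line for a library with 0 counts. The wild type γδ control libraries (red, filled) stand above all other libraries in 8 panels, while Stab1 and Pecam1 overlap between groups.

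RefSeq gives a promoter (GRCm38.p6) for 5 of the 10 genes: Kdr, Stab1, Stab2, Clec4g and Eng. The 250 bases before the start of transcription are printed here for the 4 of these that share the pattern, since their levels went alike across the libraries. They lie at chr5:75978456-75978705 (minus strand) for Kdr, chr2:32646345-32646594 (plus strand) for Eng, chr10:87007943-87008192 (minus strand) for Stab2 and chr8:3720652-3720901 (minus strand) for Clec4g. Capitals mark a match to CAGGAA, a core form of the motif of ETS factors, read on either strand.
Kdr: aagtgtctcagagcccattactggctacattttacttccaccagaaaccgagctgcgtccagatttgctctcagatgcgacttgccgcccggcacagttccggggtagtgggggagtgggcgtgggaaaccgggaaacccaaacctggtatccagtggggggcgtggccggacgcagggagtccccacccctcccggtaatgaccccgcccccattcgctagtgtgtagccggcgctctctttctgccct
Eng: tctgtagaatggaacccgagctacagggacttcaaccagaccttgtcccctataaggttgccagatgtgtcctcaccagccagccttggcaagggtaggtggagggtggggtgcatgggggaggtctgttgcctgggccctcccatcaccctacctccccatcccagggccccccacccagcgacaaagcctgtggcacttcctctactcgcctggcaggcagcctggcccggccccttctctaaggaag
Stab2: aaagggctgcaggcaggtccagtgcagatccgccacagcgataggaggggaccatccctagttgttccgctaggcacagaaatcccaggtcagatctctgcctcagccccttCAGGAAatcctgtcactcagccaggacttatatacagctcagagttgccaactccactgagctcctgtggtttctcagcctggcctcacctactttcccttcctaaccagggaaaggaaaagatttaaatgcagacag
Clec4g: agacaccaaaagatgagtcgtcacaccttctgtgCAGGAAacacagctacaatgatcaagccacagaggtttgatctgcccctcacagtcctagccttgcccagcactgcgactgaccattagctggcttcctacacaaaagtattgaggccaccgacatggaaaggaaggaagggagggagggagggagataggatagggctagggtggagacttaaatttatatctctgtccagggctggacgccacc
CAGGAA, searched on both strands, was found in 3 of the 5 promoters (Stab1, Stab2 and Clec4g) and in 25.7% of 32851 RefSeq promoter stretches of the same length. AGATAA, bound by the GATA factors, and GTAAACA, bound by forkhead factors, were likewise in 0 of the 5 and in 9.99% and 3.17% of all stretches. GC content was 61.6% in the Kdr stretch, 62.4% in Eng, 53.2% in Stab2 and 52% in Clec4g, beside a median of 52.4% over all stretches. Among the 4 printed, Stab2 and Clec4g thus held a match and Kdr and Eng held none.

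Kdr encodes the main receptor for vascular endothelial growth factor on endothelium (GRCm38, chromosome 5, 75932827 to 75978458, minus strand). It was at 45.3 and 37.6 CPM in γδ control libraries and had 0 counts in both γδ MCD libraries. In wild type CD4+ T cells it was at 2.99 and 2.43 CPM on the control diet and at 0 and 0.0462 CPM on the MCD diet, the latter from a single count. γδTCR-/- CD4+ libraries held 0.244 and 0.0481 CPM on the control diet and 0.0922 and 1.15 CPM on the MCD diet. Kdr was thus high in 1 group, low but detected in wild type CD4+ control libraries, and near the floor in most others, with γδTCR-/- MCD replicate 2 as the exception. On the MCD diet Kdr was at least 185-fold lower in γδ T cells, counted against a floor of 3 counts per library (edgeR quasi-likelihood adjusted p = 0.0761), and 113-fold lower in wild type CD4+ T cells (95% counting interval 20 to 4520, unadjusted p = 0.00447, adjusted p = 1).

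Ptprb encodes the vascular endothelial phosphatase that acts on the angiopoietin receptor Tek and on VE-cadherin (chromosome 10, 116275523 to 116389535, plus strand). Its levels were 159 and 178 CPM in γδ control libraries and 0.0825 and 11.9 CPM in γδ MCD libraries. Wild type CD4+ libraries held 49.9 and 17.5 CPM on the control diet and 1.08 and 0.0924 CPM on the MCD diet. In γδTCR-/- CD4+ T cells it was at 15.7 and 0.865 CPM on the control diet and at 1.29 and 1.61 CPM on the MCD diet. The γδ control libraries agreed within 1.12-fold for Ptprb, whereas the γδTCR-/- control libraries differed by 18.1-fold. Ptprb was 28.1-fold lower under MCD feeding in γδ T cells (log2 fold change -4.79, SE 1.65, adjusted p = 0.195) and 57.4-fold lower in wild type CD4+ T cells (log2 fold change -5.62, SE 1.70, unadjusted p = 0.00541, adjusted p = 1).

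Eng encodes endoglin, a co-receptor for ligands of the bone morphogenetic protein family (chromosome 2, 32646595 to 32682669, plus strand). It was at 30.7 and 11.4 CPM in γδ control libraries and at 0.0825 and 0.336 CPM, 1 and 5 counts, in γδ MCD libraries. CD4+ T cells of wild type mice held it at 0.644 and 0.954 CPM on the control diet and at 0 counts in both MCD libraries. γδTCR-/- libraries held 5 counts in control replicate 1 and 0 in the other 3. Eng was at least 93.7-fold lower under MCD feeding in γδ T cells, where the MCD mean lay below the floor (adjusted p = 0.195), and at least 5.59-fold lower in wild type CD4+ T cells (unadjusted p = 0.0158, adjusted p = 1). The last 61 bases of Eng lie opposite the end of Fpgs, which had 142 counts over all libraries. Whether counting used strand is not given in the sources used here.

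Stab2 encodes a scavenger receptor that takes up hyaluronan from blood (chromosome 10, 86841198 to 87008025, minus strand). It was at 19.5 and 102 CPM in γδ control libraries and at 0 and 4.84 CPM in γδ MCD libraries. In wild type CD4+ libraries it was at 2.9 and 4.51 CPM on the control diet and at 0.147 and 0.231 CPM, 3 and 5 counts, on the MCD diet. In γδTCR-/- libraries it was at 1.17 and 0 CPM on the control diet and at 0.691 and 0.23 CPM on the MCD diet. The groups of each wild type cell type did not overlap between diets, and those of γδTCR-/- cells did. Stab2 was 25.2-fold lower under MCD feeding in γδ T cells (log2 fold change -4.59, SE 2.0, adjusted p = 0.258) and 19.6-fold lower in wild type CD4+ T cells (log2 fold change -3.71, SE 1.78, adjusted p = 1).

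Stab1, its relative on sinusoidal endothelium and on some macrophages (chromosome 14, 31139013 to 31168641, minus strand), behaved otherwise. It was at 16.3 and 5.2 CPM in γδ control libraries and at 13.8 and 1.34 CPM in γδ MCD libraries. CD4+ T cells of wild type mice held 1.38 and 0.173 CPM on the control diet and 0 and 5.63 CPM on the MCD diet. In γδTCR-/- libraries it was at 1.27 and 0 CPM on the control diet and at 2.35 and 0 CPM on the MCD diet. In every group 1 library held several times the Stab1 of the other, by 3.13-fold among γδ control and 10.3-fold among γδ MCD libraries. The diet groups overlapped in all 3 kinds of T cell, with log2 fold changes of -0.50 (SE 2.44), 1.73 (SE 2.39) and 0.80 (SE 2.25).

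Lyve1 encodes a hyaluronan receptor of sinusoidal and lymphatic endothelium (chromosome 7, 110850607 to 110863239, minus strand). It was at 1.22 CPM in γδ control replicate 6 and at 46.5 CPM in replicate 7, a difference of 38.1-fold within the group. Both γδ MCD libraries had 0 counts. Wild type CD4+ libraries held 2 and 1 counts on the control diet and 0 on the MCD diet, and γδTCR-/- libraries held 0 on the control diet and 1 and 6 counts on the MCD diet. Lyve1 was thus above 1.22 CPM in 1 library of the 12. In γδ T cells its mean was at least 106-fold lower on the MCD diet (adjusted p = 0.133), a size carried by replicate 7.

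Clec4g encodes a lectin of liver and lymph node sinusoids (chromosome 8, 3707064 to 3720651, minus strand). It was at 9.87 and 35.1 CPM in γδ control libraries and had 1 and 0 counts in γδ MCD libraries. Wild type CD4+ libraries held 0.828 and 0.954 CPM, 18 and 22 counts, on the control diet and 0 counts on the MCD diet. All 4 γδTCR-/- libraries had 0 counts, on either diet. Clec4g was thus detected above the floor only in the 4 wild type control libraries among the 12. It was 597-fold lower under MCD feeding in γδ T cells (95% counting interval 107 to 23600, adjusted p = 0.133) and at least 6.23-fold lower in wild type CD4+ T cells (unadjusted p = 0.0123, adjusted p = 1).

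Dnase1l3 encodes a secreted nuclease that digests DNA in chromatin (chromosome 14, 7964533 to 7994573, minus strand). It was the only one of the 8 genes well detected in each γδ MCD library, at 609 and 226 counts. Its levels were 299 and 661 CPM in γδ control and 50.3 and 15.2 CPM in γδ MCD libraries. In wild type CD4+ libraries it was at 14.6 and 21.3 CPM on the control diet and at 2.6 and 6.6 CPM on the MCD diet. γδTCR-/- libraries held 11.8 and 5.72 CPM on the control diet and 17.5 and 8.1 CPM on the MCD diet. Dnase1l3 was 14.7-fold lower under MCD feeding in γδ T cells (log2 fold change -3.87, SE 0.73, adjusted p = 0.0724) and 3.91-fold lower in wild type CD4+ T cells (log2 fold change -1.94, SE 0.67, unadjusted p = 0.0122, adjusted p = 1). The γδTCR-/- groups overlapped.

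Oit3 encodes a secreted protein of sinusoidal endothelium (chromosome 10, 59422958 to 59441778, minus strand). It was at 37.8 and 49.2 CPM in γδ control libraries and had 0 counts in both γδ MCD libraries. Wild type CD4+ libraries held 0.276 and 1.21 CPM on the control diet and 0 and 1 counts on the MCD diet. In γδTCR-/- libraries it was at 0.829 and 0.288 CPM on the control diet and at 0.553 and 0.046 CPM on the MCD diet. Outside γδ control libraries no library held more than 1.21 CPM of Oit3, so it separated that group from the others with little within-group spread. It was at least 194-fold lower under MCD feeding in γδ T cells (adjusted p = 0.0761) and 31.9-fold lower in wild type CD4+ T cells (95% counting interval 5.35 to 1300, unadjusted p = 0.0235, adjusted p = 1).

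Pecam1 encodes an adhesion protein of endothelial junctions that is also present on platelets and many white blood cells (chromosome 11, 106654217 to 106750628, minus strand). Its counts ran from 468 to 3128 over the 12 libraries. Its levels were 44.5 and 91.3 CPM in γδ control, 38.6 and 76 CPM in γδ MCD, 86.5 and 65.2 CPM in wild type CD4+ control and 113 and 108 CPM in wild type CD4+ MCD libraries. γδTCR-/- CD4+ libraries held 124 and 150 CPM on the control diet and 80 and 64.3 CPM on the MCD diet. Pecam1 was thus highest in γδTCR-/- control libraries and did not follow the other genes. On the MCD diet it was 1.45-fold higher in wild type CD4+ T cells and 1.90-fold lower in γδTCR-/- CD4+ T cells, in each case without overlap of libraries (log2 fold changes 0.54, SE 0.46, and -0.93, SE 0.46, adjusted p = 1 and 0.787). In γδ T cells the diets overlapped, at a ratio of 1.18.

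In γδ T cells no gene of the 10 passed an adjusted p of 0.05 in the diet comparison with edgeR's quasi-likelihood test, and neither did any of the 16218 genes (0%). At an unadjusted p under 0.05, 8 of the 10 were lower on the MCD diet, beside 11.2% of all genes. Lyve1, among the 8, passed the filter only through the γδ control libraries. The same 8 did not overlap between diets, beside 22.1% of all genes that were lower without overlap. The median log2 fold change of the 10 was -5.43, or -5.67 with Kdr, Oit3, Lyve1 and Eng set to their bound, beside -0.06 over all genes. DESeq2 called 7 of the 10 (Kdr, Oit3, Dnase1l3, Ptprb, Clec4g, Lyve1 and Eng) and 2312 genes in all. It was run on all 52459 genes with its own filtering, so its counts are not shares of the 16218 genes. Without γδ MCD replicate 4, edgeR called 5 of the 10 (Kdr, Oit3, Dnase1l3, Ptprb and Stab2, adjusted p 0.0157 to 0.0333) beside 1342 genes in all (8.27%), and without γδ MCD replicate 2 it called 3 (Kdr, Oit3 and Dnase1l3, adjusted p 0.0165 to 0.0437) beside 484 (2.98%). These fits leave 1 library in the γδ MCD group, which is then assumed to vary like the other groups, so that their calls show a dependence on single libraries.

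On the MCD diet 8 of the 10 genes were lower in wild type CD4+ T cells and 2, Stab1 and Pecam1, were higher. None of the 10 and none of the 16218 genes (0%) passed an adjusted p of 0.05 with edgeR in the diet comparison. DESeq2 called 0 of the 10, beside 49 genes in all. At an unadjusted p under 0.05, 6 of the 10 were lower on the MCD diet (Kdr, Oit3, Dnase1l3, Ptprb, Clec4g and Eng), beside 1.19% of all genes, and 8 were lower without overlap, beside 17.2% of all genes, with Lyve1 among the 8 at or below the floor in both groups. The median log2 fold change of the 10 was -2.96, or -2.56 with Clec4g and Eng set to their bound, beside 0 over all genes.

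γδTCR-/- CD4+ T cells showed no common direction. Of the 10 genes 4 were higher and 5 lower on the MCD diet, with a median log2 fold change of -0.14 beside 0.03 over all genes, and Clec4g was at 0 throughout. None passed an adjusted p of 0.05 with edgeR, beside 6 genes (0.037%) among all tested. DESeq2 called 0 of the 10, beside 328 genes in all. No member was lower at an unadjusted p under 0.05, beside 2.24% of all genes. Pecam1 alone was lower without overlap, beside 18.1% of all genes.

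**Figure D2:**
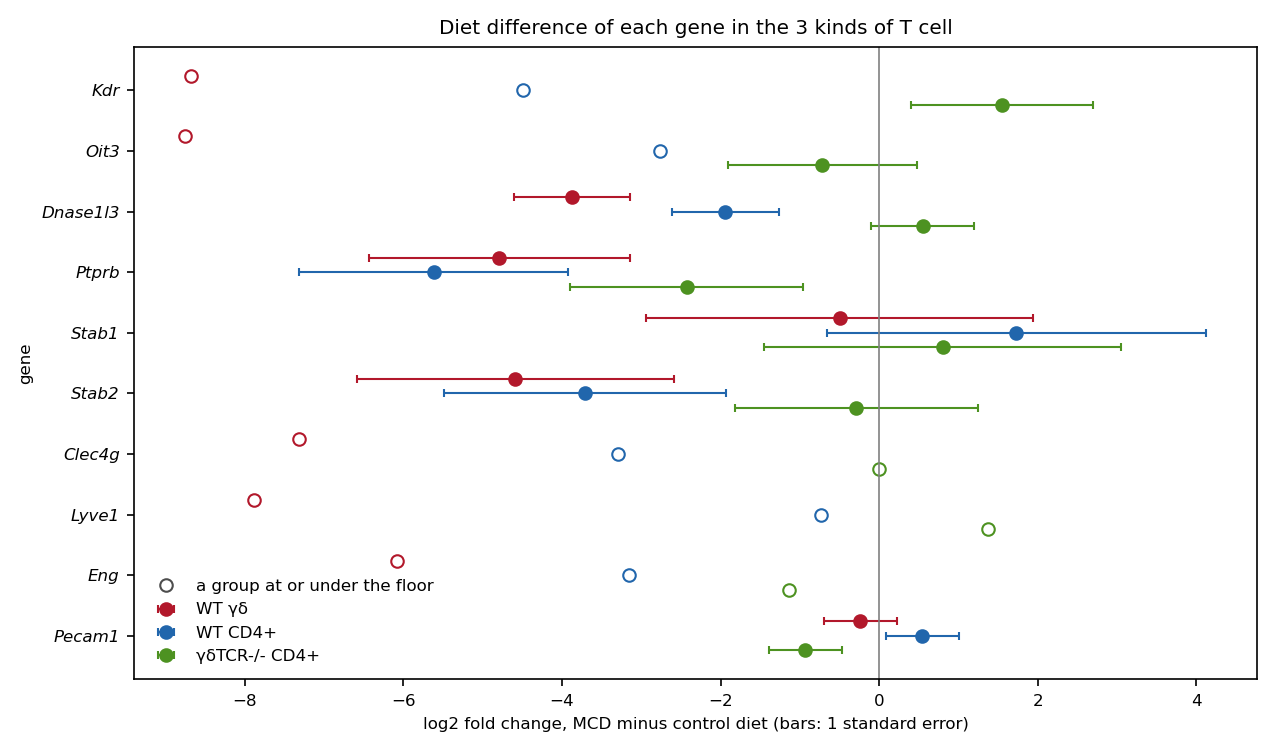
Fitted log2 fold change of each gene, MCD minus control diet, with bars of 1 standard error, in wild type γδ (red), wild type CD4+ (blue) and γδTCR-/- CD4+ (green) T cells. Open points have a group at or under the floor of 3 counts per library and their fitted size depends on the prior count. In γδ T cells 8 genes lie at or below -3.87, and the green points lie on both sides of 0.

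Whether the diet difference itself differed between kinds of T cell was tested with interaction terms. For γδ against wild type CD4+ T cells no gene passed an adjusted p of 0.05, among the 10 or all 16218 (0%), and 1 of the 10 passed at an unadjusted p under 0.05, beside 10.6% of all genes. That gene was Oit3 (log2 difference -5.98, edgeR unadjusted p = 0.0337, adjusted p = 0.445). Oit3 had 0 counts in γδ MCD libraries and 1 count in wild type CD4+ MCD libraries. The size of its difference thus depends on the prior count. For Lyve1 and Clec4g, with SEs of 12637.97 and 11.57, the test could not answer. The count of 1 thus does not show that the other genes moved alike in both cell types. For γδTCR-/- against wild type CD4+ T cells again no gene passed after adjustment (0%), and 4 of the 10 passed at an unadjusted p under 0.05, beside 4.33% of all genes. The diet difference was higher in γδTCR-/- cells for Kdr (log2 difference 6.04, SE 1.70), Dnase1l3 (2.49, SE 0.93) and Lyve1, and lower for Pecam1. By edgeR the unadjusted p was 0.00367 for Kdr and 0.0186 for Dnase1l3, and the adjusted p was 1 for all 4. The Lyve1 value rests on 3 and 7 counts in all. For Clec4g and Eng, with groups at 0 counts and SEs of 4569.78 and 3036.14, this second test could not answer. DESeq2 called 0 of the 10 in the first of these tests, beside 851 genes in all. It called 1, Kdr, in the second, beside 97 genes in all.

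Genotypes were compared among CD4+ T cells on each diet. On the control diet 9 of the 10 genes were lower in γδTCR-/- than in wild type cells, 7 of them without overlap of libraries, beside 20.6% of all genes. Lyve1, among the 7, was under the floor in both groups, with 0 and 0 counts against 2 and 1. None of the 10 passed an adjusted p of 0.05 with edgeR, beside 0.0247% of all genes. DESeq2 called 0, beside 160 genes in all. At an unadjusted edgeR p under 0.05, 2 of the 10 were lower in γδTCR-/- cells, beside 2.79% of all genes. They were Kdr, 18.6-fold lower (unadjusted p = 0.0239, adjusted p = 1), and Clec4g, at least 6.13-fold lower (unadjusted p = 0.0125, adjusted p = 1). Dnase1l3 was 2.06-fold, Ptprb 4.07-fold, Stab2 6.33-fold and Eng at least 5.5-fold lower without overlap. Pecam1 was 1.81-fold higher without overlap (unadjusted p = 0.085). The median log2 fold change of the 10 was -1.52 beside -0.03 over all genes, and -3.13 without γδTCR-/- control replicate 1, which held most of that group's Ptprb, Stab1 and Stab2.

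On the MCD diet the order was the other way for several genes. Kdr was higher in γδTCR-/- than in wild type CD4+ T cells (26.1-fold, 95% counting interval 4.3 to 1070, unadjusted p = 0.0285), with 25 of its 27 counts in replicate 2, and Dnase1l3 was 2.78-fold higher (log2 fold change 1.45, SE 0.66, unadjusted p = 0.0459). These 2 of the 10 passed at an unadjusted p under 0.05, beside 1.13% of all genes, and 4 of the 10 were higher without overlap, beside 15.9% of all genes. Lyve1, among the 4, had 1 and 6 counts against 0 and 0. No gene passed an adjusted p of 0.05 with edgeR (0%). DESeq2 called 0 of the 10, beside 46 genes in all. Both genotype comparisons, and both cell type comparisons that follow, share their libraries with the diet comparisons above.

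The 2 wild type cell types were also compared on each diet. On the control diet Dnase1l3 was 26.7-fold higher in γδ than in CD4+ T cells and passed the test (log2 fold change 4.73, SE 0.76, edgeR adjusted p = 0.00956), as did 0.654% of all genes. It was the 1 gene of the 10 that passed with edgeR, while DESeq2 called 6 (Clec4g, Dnase1l3, Eng, Kdr, Lyve1 and Oit3) among 1129 genes in all. The base of that DESeq2 count is not the 16218 genes tested with edgeR. Lyve1 had passed the filter only through the γδ control libraries, so its direction was built in. The call was lost without wild type CD4+ control replicate 2 (adjusted p = 0.17) or 3 (0.108), or without γδ control replicate 7 (0.14), with log2 fold changes of 4.02 to 5.03 in these fits. At an unadjusted p under 0.05, 6 of the 10 were higher in γδ T cells, beside 5.4% of all genes, and 9 were higher without overlap, beside 20.1% of all genes. Oit3 was 58.4-fold, Eng 26.3-fold, Clec4g 25.3-fold, Stab2 16.5-fold, Kdr 15.3-fold, Stab1 13.8-fold and Ptprb 5.0-fold higher. Lyve1 was 346-fold higher (95% counting interval 118 to 1680). Pecam1 overlapped between the cell types.

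On the MCD diet Dnase1l3 was 7.11-fold higher in γδ T cells (log2 fold change 2.80, SE 0.69, adjusted p = 0.0496), as the 1 gene of the 10 past the threshold, beside 2.65% of all genes. That call was lost in 11 of the 12 fits that left out 1 library (adjusted p 0.0583 to 0.278) and held without γδ MCD replicate 4 (0.00554). It was also the only one of the 10 higher at an unadjusted p under 0.05, beside 8.52% of all genes, and 2 of the 10 (Dnase1l3 and Eng, the latter on 6 counts) were higher without overlap, beside 14.5% of all genes. Ptprb was 10.2-fold and Stab2 12.8-fold higher by their means, each through γδ MCD replicate 4 alone. Pecam1 was 1.92-fold lower in γδ T cells without overlap (unadjusted p = 0.061).

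Levels of different genes were compared on the deposited FPKM scale, which divides by transcript length. In γδ control libraries Dnase1l3 was first at 53.96 and 121.63 FPKM, above Oit3 at 12.58 and 16.73, Ptprb at 11.07 and 12.63 and Pecam1 at 6.63 and 13.88 FPKM. Clec4g followed at 3.72 and 13.52, Lyve1 at 0.39 and 15.1, Stab2 at 2.06 and 11.08, Eng at 7.03 and 2.67, Kdr at 4.65 and 3.95 and Stab1 at 1.47 and 0.48 FPKM. Dnase1l3 lay above the other 9 without overlap, and most neighbours further down this order overlapped. In the other 5 groups Pecam1 had the highest mean FPKM of the 10.

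The mix of genes differed between libraries of 1 group. In γδ control replicate 7, Lyve1, Stab2 and Clec4g were 38.1-fold, 5.26-fold and 3.56-fold higher than in replicate 6, while Stab1, Eng and Kdr were 3.13-fold, 2.68-fold and 1.2-fold lower. Ptprb and Oit3 differed by 1.12-fold and 1.3-fold. Summed over the 9 genes other than Pecam1, these libraries held 619 and 1130 CPM. γδ MCD libraries held 64.3 and 33.6 CPM, of which Dnase1l3 made up 78.2% and 45.2%. CD4+ libraries of wild type mice held 73.6 and 49.1 CPM on the control diet and 3.83 and 12.7 CPM on the MCD diet, and γδTCR-/- libraries held 31.2 and 6.92 CPM and then 22.5 and 11.4 CPM. In wild type CD4+ MCD replicate 3, Stab1 supplied 44.5% of the sum, and in γδTCR-/- control replicate 1, Ptprb supplied 50.3%.

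**Figure D3:**
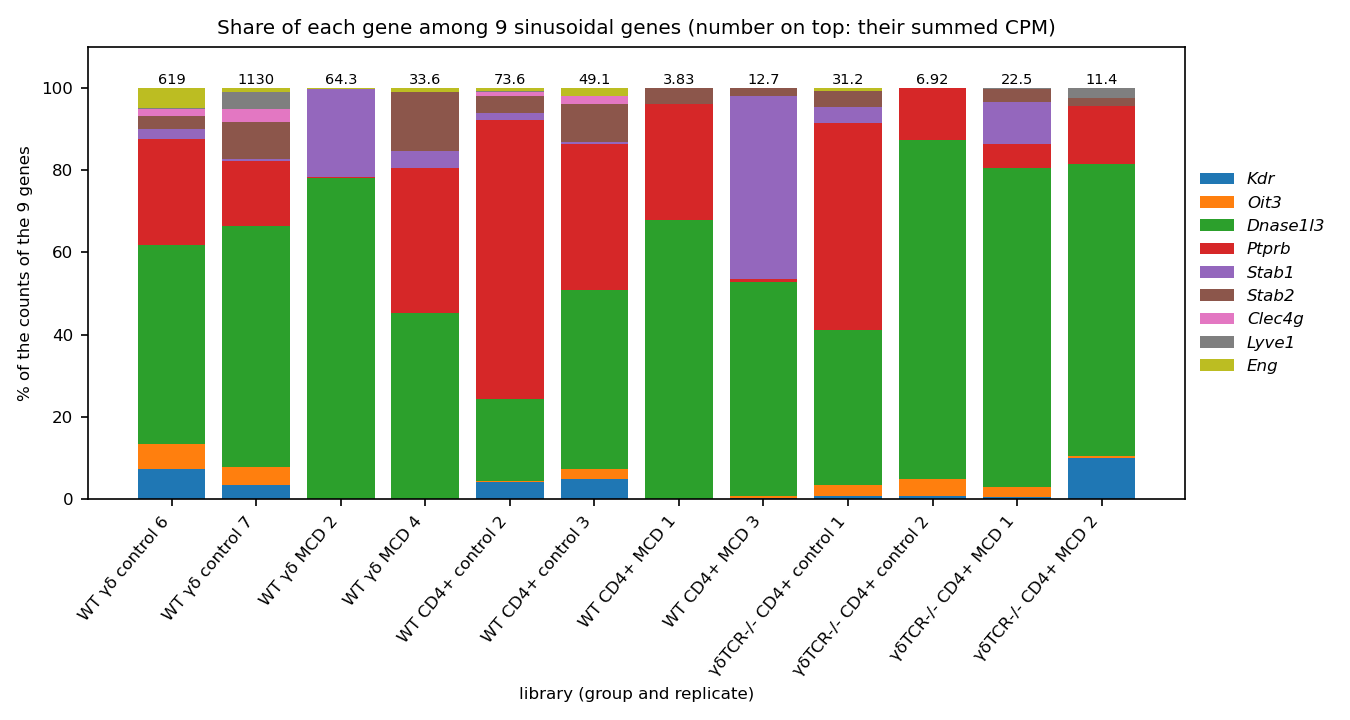
Share of each gene in the counts of the 9 genes other than Pecam1, 1 bar per library, with their summed CPM printed on top. Dnase1l3 and Ptprb make up most of the sum in most libraries, Kdr, Clec4g and Eng take visible shares in wild type control libraries, Kdr reaches 10.1% in γδTCR-/- MCD replicate 2, and Stab1 is large in γδ MCD replicate 2 (21.4%) and wild type CD4+ MCD replicate 3 (44.5%).

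Across the 12 libraries the log2 levels of 8 genes went together. Pearson's r of each gene with the mean of the others, which is a description over libraries that share their groups, was 0.944 for Clec4g, 0.936 for Eng, 0.928 for Oit3, 0.898 for Stab2, 0.885 for Kdr, 0.862 for Dnase1l3, 0.838 for Lyve1 and 0.819 for Ptprb. It was 0.383 for Stab1 and -0.33 for Pecam1. The 10 other genes most like the mean of the members were Nid1 (r = 0.971), Nr2f2 (0.954), C1qtnf1 (0.946), Hspg2 (0.928), Cd59a (0.926), Lasp1 (0.923), Arhgap23 (0.919), Pcdh17 (0.917), Mmrn1 (0.916) and Cyp4b1 (0.915). They were picked for this likeness, so their higher levels in γδ control libraries follow from the choice. Nid1 and Hspg2 encode the basement membrane proteins nidogen and perlecan, and Nr2f2 encodes a transcription factor of venous and lymphatic endothelium. Nid1 was at 9.66 and 52.3 CPM in γδ control libraries, at 1.06 and 1.21 CPM in wild type CD4+ control libraries and at 0 in both γδ MCD libraries. Mmrn1, a multimerin of endothelium and platelets, was at 1.63 and 14.5 CPM in γδ control libraries and at 0 in the other 10. Lasp1 differed far less, at 183 and 166 CPM in γδ control libraries and at 72.7 to 113 CPM in the other 10.

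Other genes of sinusoidal endothelium were lower in the same group. Of a list of 16, 10 could be tested, and all 10 were lower in γδ T cells under MCD feeding, 8 at an unadjusted p under 0.05, beside 11.2% of all genes, and 0 after adjustment, with a median log2 fold change of -5.34. Of the 10, Bmp6 and Rspo3 passed the filter only through the γδ control libraries, and their direction was built in. Mrc1, the mannose receptor, was at 92.9 and 141 CPM in γδ control libraries and at 15 and 7.86 CPM in γδ MCD libraries (unadjusted p = 0.0439). Fcgr2b, an inhibitory Fc receptor also made by B cells, was at 65.3 and 177 CPM and then at 43.8 and 18.6 CPM. Ehd3, the gene of the list with the highest mean CPM, was at 56.1 to 232 CPM in all 12 libraries. It was at 228 and 232 CPM in γδ control and at 90.9 and 123 CPM in γδ MCD libraries. Wild type CD4+ libraries held Ehd3 at 142 and 95.5 CPM on the control diet and at 123 and 182 CPM on the MCD diet. F8, Flt4 and Bmp2, picked after their values were seen, were at 36.1 and 116 CPM, 18.9 and 66.5 CPM, and 8.7 and 92.9 CPM in γδ control libraries and at 0 in both γδ MCD libraries. F8 encodes coagulation factor VIII, Flt4 the receptor for lymphatic growth factor and Bmp2 a ligand that sets iron balance in the liver. In wild type CD4+ T cells 6 of the 10 were lower and 3 higher, with a median of -0.38. In γδTCR-/- CD4+ T cells 7 were lower and 3 higher, with a median of -0.42.

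Among genes of endothelium in general, 10 of a list of 20 could be tested. Of these 10, 5 (Tek, Ramp2, Robo4, Sox7 and Cyyr1) passed the filter only through the γδ control libraries, so that the list's counts in γδ T cells are in part built in. In γδ T cells 9 of the 10 were lower on the MCD diet, 5 at an unadjusted p under 0.05, beside 11.2% of all genes, and 0 after adjustment, with a median log2 fold change of -4.81. Cdh5, which encodes VE-cadherin, was at 48.1 and 47.7 CPM in γδ control libraries and at 0 and 13.2 CPM in γδ MCD libraries. Calcrl, a receptor subunit for adrenomedullin, was at 33 to 85.8 CPM in all 12 libraries and set no group apart. Of the 5 genes of the lymphatic list, Prox1, Pdpn and Ccl21a were at 0 in all 12 libraries. The other 2, Flt4 and Mmrn1, were both lower in γδ T cells on the MCD diet, with a sum of 20.6 and 80.9 CPM in γδ control and 0 in both γδ MCD libraries, and Mmrn1 passed the filter only through the γδ control libraries. Of 10 genes of large-vessel and continuous endothelium 4 could be tested. On the control diet 3 were higher and 1 lower in γδ than in CD4+ T cells, and under MCD feeding 3 were lower and 0 higher in γδ T cells, with Plvap and Cd34 passing the filter only through the γδ control libraries. The gene lower on the control diet was Sele, which encodes E-selectin and had 0 counts in all 4 γδ libraries and was at 5.4 to 11.6 CPM in all 8 CD4+ libraries.

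Partners of the receptors among the members did not share one direction. Of 8 testable ligands and receptors of the VEGF and angiopoietin families, 4 were higher and 4 lower in γδ T cells under MCD feeding, and 0 passed after adjustment. Tek, among the 4 lower, passed the filter only through the γδ control libraries. Nrp1, a co-receptor of Kdr that T cells also make, was at 59.3 and 45.8 CPM on the control diet and at 64.8 and 85.3 CPM on the MCD diet in γδ libraries. Of 9 testable genes of the endoglin pathway, 7 were higher and 2 lower there. Bmpr2 and Tgfbr1, receptors of that pathway, were higher in γδ than in CD4+ T cells on the MCD diet (log2 fold changes 2.16 and 2.38, edgeR adjusted p = 0.0285 and 0.0314). They were the 2 of the 9 that passed there, beside 2.65% of all genes. Of 10 testable hyaluronan and scavenger receptors, 5 were higher and 5 lower under MCD feeding in γδ T cells. Cd44, the hyaluronan receptor of T cells, was at 340 and 553 CPM and then at 669 and 955 CPM, and was higher in γδ than in CD4+ T cells on the MCD diet (log2 fold change 1.76, adjusted p = 0.0272). Msr1, a scavenger receptor, was the other gene of that list to pass there, so that 2 of the 10 passed, beside the same 2.65%. Msr1 was at 20.7 and 81.4 CPM and then at 242 and 75.4 CPM in γδ libraries.

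Markers of other cells moved with these groups in different ways. Summed over 12 Kupffer cell markers, γδ libraries held 293 and 518 CPM on the control diet and 451 and 356 CPM on the MCD diet, beside 8.55 to 41 CPM in CD4+ libraries. Csf1r carried much of that sum, at 138 and 212 CPM and then at 269 and 273 CPM, with Adgre1 at 28 and 66.7 CPM and then at 163 and 12.2 CPM. Of the 10 Kupffer cell markers that could be tested, 7 were lower and 3 higher in γδ T cells on the MCD diet, with a median log2 fold change of -1.37. C1qa, among the 7, passed the filter only through the γδ control libraries. C1qb was at 53.3 and 49.2 CPM and then at 10.4 and 12.6 CPM, and C1qc was at 45.4 and 116 CPM and then at 5.61 and 19 CPM. Clec4f was at 7.88 and 2.44 CPM, Timd4 at 0.203 and 2.44 CPM and Folr2 at 0.203 and 0 CPM in γδ control libraries. These 3 were at 0 in both γδ MCD libraries, but Folr2 lay near the floor on both diets and Timd4 rested mostly on control replicate 7. Vsig4, among the 3 higher, was at 5.54 and 18.4 CPM and then at 0.248 and 27.6 CPM. Over 15 hepatocyte markers the sums were 49.8 and 82.8 CPM and then 525 and 97.7 CPM, with Ass1 at 378 and Hp at 77.3 CPM in γδ MCD replicate 2. Alb, the hepatocyte's most abundant product, was at 21.2 and 54.9 CPM in γδ control, 10.5 and 1.21 CPM in γδ MCD, 21.3 and 12.9 CPM in wild type CD4+ control and 0.59 and 0.139 CPM in wild type CD4+ MCD libraries. In γδTCR-/- libraries Alb was at 23.5 and 27 CPM and then at 14.5 and 2.25 CPM. Over 7 neutrophil markers γδ libraries held 8.55 and 19.8 CPM on the control diet and 97.4 and 168 CPM on the MCD diet. Csf3r carried much of that sum, at 8.49 and 17.2 CPM and then at 92.1 and 85.2 CPM. S100a9 was at 2.81 and 68.5 CPM and S100a8 at 2.48 and 14.2 CPM on the MCD diet. Ly6g, Retnlg, Mpo and Elane were at 0 in γδ libraries of both diets. Some markers of further cells, chosen after their values were seen, were also lower in wild type MCD libraries. Rgs5, a pericyte and stellate cell gene, was at 6.87 and 32.7 CPM in γδ control, 0 in both γδ MCD, 13 and 0.52 CPM in wild type CD4+ control and 0.0491 and 0 CPM in wild type CD4+ MCD libraries, and at 3.51 to 6.39 CPM in γδTCR-/- libraries. Its list did not move as one. Of 7 testable stellate cell and fibroblast genes, 3 were higher and 4 lower in γδ T cells on the MCD diet, with a median log2 fold change of -0.32. Pdgfrb, among the 4, passed the filter only through the γδ control libraries. In wild type CD4+ T cells 1 was higher and 5 were lower. Igkc, the light chain constant region of B and plasma cells, was at 139 and 66.8 CPM and then at 4.62 and 6.05 CPM in γδ libraries, at 40.5 and 36.5 CPM and then at 1.62 and 8.22 CPM in wild type CD4+ libraries, and at 27.7 and 57 CPM and then at 8.57 and 10 CPM in γδTCR-/- libraries. Ighm, the gene of that list with the highest mean CPM, differed less. It was at 470 and 560 CPM and then at 276 and 484 CPM in γδ libraries. In wild type CD4+ libraries it was at 242 and 309 CPM and then at 297 and 204 CPM. Of the 7 genes of the list, 6 were lower and 1 higher in γδ T cells on the MCD diet, and 5 were lower and 2 higher in wild type CD4+ T cells. The sum of 6 erythroid markers was 15.1 and 7.31 CPM in γδ control and 0.743 and 0 CPM in γδ MCD libraries. The T cell list summed to 3460 and 3020 CPM and then to 2330 and 2170 CPM. The part of these cells in the levels of the 10 genes was not tested.

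**Figure D4:**
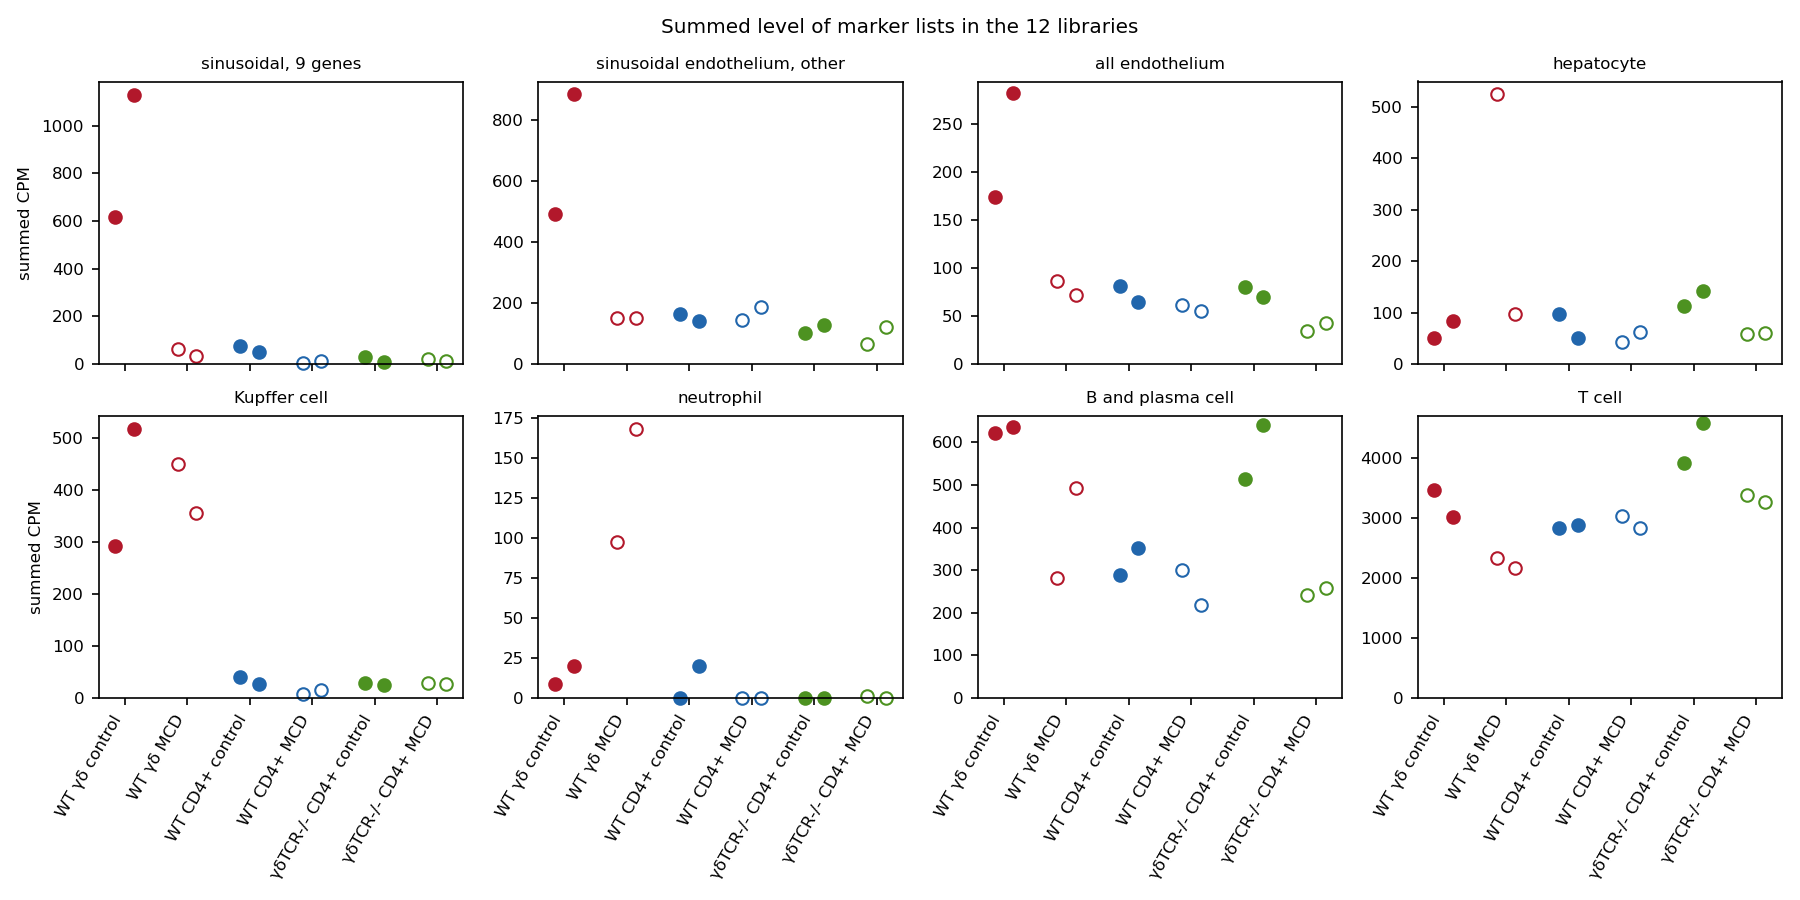
Summed CPM of 8 marker lists on linear axes, 1 point per library, filled for the control diet and open for the MCD diet. The 3 endothelial panels are highest in γδ control libraries (red, filled). In the other libraries Ehd3 makes up much of the sum of the other sinusoidal list, and Calcrl much of that of the general endothelial list. The Kupffer cell sum, of which Csf1r makes up much, overlaps between γδ libraries of both diets. The neutrophil sum, of which Csf3r makes up much, is highest in γδ MCD libraries.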

How the data were processed

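RNA was sequenced from 12 libraries of sorted T cells. The authors deposited raw read counts per gene and FPKM values, which are per transcript length and which the authors scaled with factors that do not follow library totals. Per the submitters' processing notes, bcl2fastq, STAR, featureCounts and DESeq2 were used with mm10 (GRCm38), with versions not given in the sources used here.

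Counts were tested with edgeR 4.0.16 (quasi-likelihood test, TMM scaling, filter of at least 10 counts, 2-sided, Benjamini-Hochberg over 16218 genes) in 1 fit over all 6 groups, with 9 comparisons. Standard errors were derived from the F statistic and are approximate. Fitted fold changes use a prior count of 2. Printed folds are ratios of mean CPM, of pooled counts with an exact 95% interval where a group held 1 to 3 counts, or otherwise bounds against 3 counts per library where a group's mean lay at or under that floor. Intervals and floors cover counting error only. Alternatives were other scalings (RLE, total counts), no mitochondrial genes, no filter, DESeq2 1.42.0, limma 3.58.1 on log2(FPKM + 1) and log2(FPKM + 0.1), only the groups compared, the replicate block in γδTCR-/- cells, and leaving out each library. Replicate numbers shared by the γδTCR-/- groups do not come with a stated pairing. The scripts were tested on simulated data.

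The members and the gene lists were chosen with earlier results of these data known. All members are named. Genes named from other lists were mostly those with an adjusted p under 0.05 in any comparison or among their list's 3 of highest mean CPM. Not all such genes are named. Likeness names the 10 genes with the highest r among those of at least 5 CPM in their highest group. Positions are from the GENCODE annotation of GRCm38.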

Additional observations from a re-analysis of the deposited data

Results flagged for a closer look

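For 2 of the genes every library moved one way with diet in wild type CD4+ T cells and the other way in γδTCR-/- CD4+ T cells. Pecam1 was at 86.5 and 65.2 CPM on the control diet and at 113 and 108 CPM on the MCD diet in wild type cells, and at 124 and 150 CPM and then at 80 and 64.3 CPM in γδTCR-/- cells. The difference of the diet differences was -1.47 on the log2 scale (SE 0.65, edgeR unadjusted p = 0.041, adjusted p = 1). Lyve1 had 2 and 1 counts and then 0 and 0 in wild type cells, and 0 and 0 and then 1 and 6 counts in γδTCR-/- cells, with a difference of 2.11 on the log2 scale (edgeR unadjusted p = 0.0417, adjusted p = 1). These Lyve1 counts lie at or below the floor of 3 counts in all but 1 library.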

How the results depend on the processing

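Under all 20 alternatives the 8 genes of the common pattern stayed lower in γδ T cells on the MCD diet (168 of 168 values below 0, the reported ones included, the highest -2.24). These 8 had been grouped for not overlapping between diets, so leaving out 1 library could hardly turn a sign. That count is thus a description and adds no support for the pattern. Calls depended on the setting, and the cause was not tested. In that comparison the number of the 10 genes called was 0, but 5 without the filter, 7 by DESeq2, 6 with log2(FPKM + 1), 4 with log2(FPKM + 0.1) and 0 to 5 when 1 library was left out. Genes called there numbered 3 with total counts, 555 without the filter, 2312 by DESeq2, 148 and 210 with the FPKM scales and 0 to 1342 with 1 library left out. The median of the 10 was -2.39 with log2(FPKM + 1) and -7.42 to -4.19 with 1 library left out.

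Without the filter the other counts of genes called were 19 (wild type CD4+ diet), 105 (γδTCR-/- diet), 52 and 11 (genotype, control and MCD), 354 and 1071 (cell type, control and MCD), 113 (diet by cell type) and 44 (diet by genotype), with 1 of the 10 called for wild type CD4+ diet (Ptprb) and 2 for cell type on MCD. DESeq2 gave 49, 328, 160, 46, 1129, 3128, 851 and 97 in that order, with 6 of the 10 called for cell type on the control diet and 1 for diet by genotype, and medians of -4.62 (wild type CD4+ diet) and 3.64 (diet by genotype). With log2(FPKM + 1) they were 15 (γδTCR-/- diet), 2 and 5 (genotype), 287 and 659 (cell type), with 5 and 0 of the 10 called for cell type on control and MCD, and medians of -0.33 (wild type CD4+ diet), -0.27 (genotype on control), 2.16 (cell type on control) and 0.31 (diet by genotype). With log2(FPKM + 0.1) they were 282 and 932 (cell type) and 3 (diet by cell type), with 4 and 0 of the 10, and a median of -1.72 (wild type CD4+ diet). Total counts gave 10 (γδTCR-/- diet) and 748 (cell type on MCD), with 0 of the 10. Only the groups compared gave 2 (genotype on control), 9 (cell type on MCD, 0 of the 10) and 1 (diet by genotype).

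With 1 library left out, genes called ranged from 0 to 42 (γδTCR-/- diet), 0 to 6 (genotype on control), 27 to 305 and 47 to 2095 (cell type), 0 to 455 (diet by cell type) and 0 to 1 (diet by genotype). The 10 gave 0 to 1 in both cell type comparisons. Their medians ranged from -1.07 to 0.9 (γδTCR-/- diet), -3.13 to -0.92 (genotype on control), -0.15 to 1.05 (cell type on MCD) and -3.92 to -2.03 (diet by cell type). The Dnase1l3 difference of cell type on MCD was 1.69 to 3.6 and stayed above 0.

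When 1 library was left out, log2 fold changes turned sign for single genes whose groups overlapped or lay near the floor. In γδTCR-/- T cells, values ranged from -0.35 to 2.34 for Kdr, -2.16 to 0.03 for Oit3, -0.11 to 1.13 for Dnase1l3, -3.35 to 0.67 for Ptprb, -2.85 to 3.65 for Stab1, -1.18 to 2.46 for Stab2 and -1.76 to 0 for Eng, where leaving out control replicate 1 turned Oit3, Ptprb and Stab2 and took Eng to 0, and leaving out MCD replicate 2 also turned Stab2 (0.21). In γδ T cells they ranged from -2.89 to 0.54 for Stab1 (turned without control replicate 6 or MCD replicate 4) and -0.8 to 0.38 for Pecam1 (without control replicate 7 or MCD replicate 2). In wild type CD4+ T cells Stab1 ranged from -3.1, without MCD replicate 3, to 3.4.

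With the replicate block, possible only in γδTCR-/- T cells, 80 genes and 0 of the 10 were called for diet and Stab2 was 0.45. Deviations of replicate 1 from its group mean, γδTCR-/- control against γδTCR-/- MCD, had r = -0.006 across genes. From 2 libraries a group this r cannot tell whether the numbers denote pairs. The numbers were not used as pairs in the main fit. With 2 libraries a group, levels under 0.13 to 0.248 CPM could not be told from 0.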
